A study of Mus musculus with 8 samples.

Results

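Open regions made mostly of repeats were merged stretches of accessible chromatin in which at least 50% of the bases were repeat-masked in the mm10 (GRCm38) mouse genome. They were found by merging the peaks of 4 ATAC-seq peak lists that lay within 400 bp of each other and reading the masking, written as lower-case letters, from the genome sequence. Of 101701 merged regions, 7276 met this rule and are called repeat-rich regions here, and the other 94425 served for comparison. ATAC-seq uses a transposase that cuts accessible DNA, so a peak marks a stretch of open chromatin. The 8 libraries came from 4 groups of 2. They were fibroblasts of mouse embryos (MEFs), embryonic stem cells (ESCs), and MEFs 5 and 10 days into reprogramming by retroviral OSKM (Oct4, Sox2, Klf4 and Myc). The study follows how fibroblasts become pluripotent, and the peak lists show which chromatin was open at the start, on the way and in the reference pluripotent cells. The authors deposited 1 list per group, so no list shows the spread between its 2 libraries, and the number of reads behind a list is unknown.

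The MEFs had no virus and no overexpression. The OSKM cells were MEFs that carried the 4 factors in pMXs retroviruses together with a FLAG control, in ESC medium with vitamin C. All libraries were labelled wild type. MEFs, both OSKM days and ESC replicate 2 had the strain label C57BL/6J-OG2, a mouse with an Oct4-GFP reporter, and ESC replicate 1 had C57Bl6J. The labels place ESCs on feeder fibroblasts with serum and LIF, while the study's methods describe OG2 ESCs in 2i medium on gelatin. Cell type, medium and, for 1 ESC library, strain therefore cannot be told apart in any comparison with ESCs. Of 6 ESC marker genes, 6 had a peak within 1 kb of a start site in the ESC list, 3 in the MEF list and 2 on each OSKM day. Of 6 MEF markers, 6 had one in the MEF list, 5 on each OSKM day and 4 in the ESC list, with Prrx1 and Thy1 lacking one in ESCs. A peak at a start site thus did not separate the groups for every marker.

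A large part of the mouse genome descends from transposable elements. These include LINEs and SINEs, which copy themselves through RNA, and endogenous retroviruses, whose long terminal repeats (LTRs) carry the sequence that starts and enhances their own transcription and often remain as solitary copies. Most copies are kept silent in differentiated cells by DNA methylation and repressive histone marks, and some groups of endogenous retroviruses are known to be transcribed in the early embryo and in ESCs. Another kind of repeat is the tandem repeat, in which 1 unit follows itself many times.

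Repeats were sorted into families by comparing the masked stretches of the repeat-rich regions with each other, since no repeat library was used here. A family is therefore a number, in order of size, and has no element name. The most central stretch of a family is its exemplar. The core is the longest run of the exemplar where the number of aligned members was at least 50% of its highest value along the exemplar. A few cores are shown because the results below turn on them. Coordinates are mm10, letters are in the order of the strand named, and capitals mark matches to short sequence patterns that were frequent in that family. A pattern counted as frequent when at least 20% of the family's windows of 200 bp held it. Its share also had to be at least 2 times that of the other repeat-rich regions. The patterns were searched on both strands.

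Families 1, 2 and 28 were cores of families seen mostly in ESCs. The bases of family 1 lie at chr15:43487136-43487435 on the plus strand and are the first 300 of 467. Those of family 2 lie at chr10:25809834-25810065 and those of family 28 at chr12:74808721-74808815, both on the plus strand. Capitals mark the SOX pattern CCNTTGT and the octamer-SOX core TTGTNATGC, the place where a SOX site and an OCT4 octamer meet. No pattern frequent in the family fell in the printed part of family 1.
family 1: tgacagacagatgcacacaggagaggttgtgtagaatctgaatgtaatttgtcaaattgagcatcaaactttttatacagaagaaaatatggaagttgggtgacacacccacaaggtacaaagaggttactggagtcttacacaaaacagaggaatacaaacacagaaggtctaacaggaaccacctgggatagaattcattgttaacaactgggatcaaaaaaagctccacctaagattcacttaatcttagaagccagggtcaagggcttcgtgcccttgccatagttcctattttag
family 2: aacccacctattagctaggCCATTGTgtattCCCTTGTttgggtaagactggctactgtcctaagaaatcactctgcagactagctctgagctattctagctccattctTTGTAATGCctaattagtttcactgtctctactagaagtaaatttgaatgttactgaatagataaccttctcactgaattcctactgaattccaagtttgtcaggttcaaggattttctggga
family 28: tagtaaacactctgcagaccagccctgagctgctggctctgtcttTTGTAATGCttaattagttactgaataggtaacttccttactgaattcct

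Families 3 and 23 held the full octamer ATGCAAAT, the sequence bound by OCT4 and other POU factors. The bases of family 3 lie at chr8:33445946-33446245 on the minus strand and also hold a match to NCATTCC, bound by TEAD factors. Those of family 23 lie at chr12:76459869-76460168 on the plus strand and hold 3 octamers in a repeated unit. Capitals mark the octamer in both and the TEAD pattern in family 3.
family 3: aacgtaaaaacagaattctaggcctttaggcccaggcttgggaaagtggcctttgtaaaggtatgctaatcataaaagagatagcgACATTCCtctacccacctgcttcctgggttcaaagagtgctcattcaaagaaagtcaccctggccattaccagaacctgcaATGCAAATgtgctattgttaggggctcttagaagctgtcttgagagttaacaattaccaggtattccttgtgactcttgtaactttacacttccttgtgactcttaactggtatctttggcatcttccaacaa
family 23: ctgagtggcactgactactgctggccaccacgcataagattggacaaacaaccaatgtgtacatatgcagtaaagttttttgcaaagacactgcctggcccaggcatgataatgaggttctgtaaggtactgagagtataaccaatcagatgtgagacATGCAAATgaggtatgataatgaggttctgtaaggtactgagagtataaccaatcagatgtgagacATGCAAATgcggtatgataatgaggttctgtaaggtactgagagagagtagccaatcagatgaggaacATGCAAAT

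Family 16 held AAGATGGC, the sequence bound by YY1, shown in capitals. Its bases lie at chr13:77799159-77799337 on the plus strand.
family 16: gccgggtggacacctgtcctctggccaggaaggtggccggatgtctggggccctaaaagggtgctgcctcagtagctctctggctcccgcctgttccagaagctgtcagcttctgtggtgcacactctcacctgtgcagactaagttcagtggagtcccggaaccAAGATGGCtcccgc

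Family 12 was seen mostly at day 5, and family 11 mostly in ESCs and at day 10. Neither had a pattern that reached the limits for a frequent one, so nothing is in capitals. In family 11 the KLF pattern CCACNCCC was in 15.3% of windows, against 7.83% of other repeat-rich regions. It was in 60.1% of the whole regions of family 11, against 20.6% of all repeat-rich regions. Family 12 is shown by the first 300 of 549 core bases at chr3:4634234-4634533 and family 11 by the first 300 of 787 at chr6:129064308-129064607, both on the plus strand.
family 12: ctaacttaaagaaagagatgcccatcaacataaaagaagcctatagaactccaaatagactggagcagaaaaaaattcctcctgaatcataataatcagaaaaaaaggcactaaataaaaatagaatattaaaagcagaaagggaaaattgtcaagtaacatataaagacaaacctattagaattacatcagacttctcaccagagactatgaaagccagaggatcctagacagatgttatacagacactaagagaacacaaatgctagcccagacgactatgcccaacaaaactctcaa
family 11: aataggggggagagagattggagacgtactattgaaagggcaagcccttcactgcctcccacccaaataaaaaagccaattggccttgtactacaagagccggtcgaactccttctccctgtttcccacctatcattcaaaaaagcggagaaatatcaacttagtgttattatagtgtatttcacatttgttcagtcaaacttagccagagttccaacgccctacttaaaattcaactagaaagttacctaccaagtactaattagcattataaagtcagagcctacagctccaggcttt

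Family 38 was the family seen mostly in MEFs, and family 10 was the one with the second largest number of MEF-specific regions. Both lie on the plus strand, family 38 at chr5:129227310-129227436 and family 10 at chr7:102551664-102551766. Capitals mark the AP-1 pattern TGANTCA in family 38 and the RUNX pattern TGTGGTT in family 10.
family 38: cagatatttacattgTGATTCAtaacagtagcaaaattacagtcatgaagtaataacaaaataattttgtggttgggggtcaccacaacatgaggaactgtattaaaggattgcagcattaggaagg
family 10: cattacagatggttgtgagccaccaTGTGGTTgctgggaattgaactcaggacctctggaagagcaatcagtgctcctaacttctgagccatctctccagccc

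Repeat-rich regions were open mainly in ESCs. A peak was present in the MEF list in 1012 of the 7276 (13.9%, 95% Wilson interval 13.1 to 14.7), at day 5 in 1298 (17.8%, 17 to 18.7), at day 10 in 904 (12.4%, 11.7 to 13.2) and in ESCs in 5424 (74.5%, 73.5 to 75.5). Over all regions the corresponding shares were 55.5% for MEFs, 35.4% for day 5, 34.5% for day 10 and 47.5% for ESCs. These intervals, and all others below, cover counting error only and treat regions as independent, although copies of 1 repeat share their sequence. Against the other regions, the share was different by −44.8 points in MEFs (95% Newcombe interval −45.6 to −43.9), by −19.0 points at day 5 (−19.9 to −18), by −23.8 points at day 10 (−24.6 to −23.0) and by 29.1 points in ESCs (28.1 to 30.2). The sign was the same on 21 of 21 chromosomes for MEFs, day 5 and day 10, and on 20 for ESCs. The order of MEFs and day 10 depended on the number of peaks taken. With the same number of highest-scoring peaks in each list, which left 5484 repeat-rich regions, 6.93% had a peak in MEFs, 23.1% on day 5, 16.6% on day 10 and 74.6% in ESCs.

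Each region was put in 1 of 4 classes. MEF-specific regions were in the MEF list but not the ESC list, ESC-specific regions the reverse, common regions had both, and transient regions had a peak at day 5 or day 10 only. Of the repeat-rich regions, 5285 were ESC-specific (72.6%, 71.6 to 73.7), against 28.4% of all regions. Transient regions numbered 979 (13.5%, against 16.1% of all), MEF-specific regions 873 (12%, against 36.4%) and common regions 139 (1.91%, against 19.1%). The difference from the other regions was 47.7 points for the ESC-specific share (46.6 to 48.7, same sign on 21 chromosomes), −26.3 points for the MEF-specific share (−27.0 to −25.4, 20 chromosomes), −18.5 points for the common share (−18.9 to −18.1, 21 chromosomes) and −2.86 points for the transient share (−3.67 to −2.03, 17 chromosomes). With the same number of peaks in each list, 6.02% were MEF-specific, 73.7% ESC-specific, 0.912% common and 19.4% transient.

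**Figure D1:**
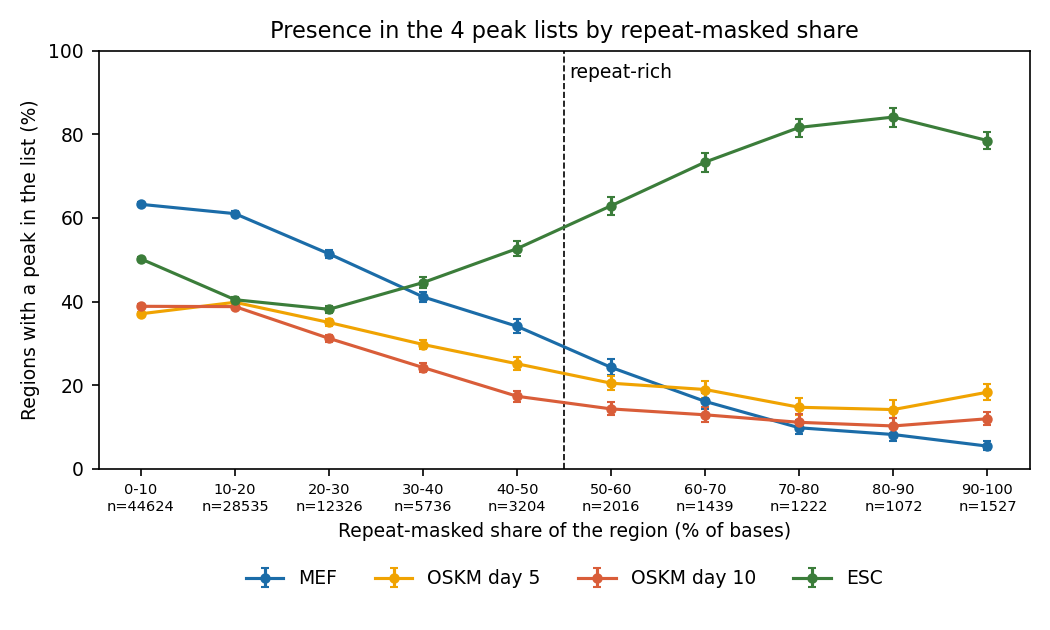
Share of merged regions with a peak in each of the 4 lists (vertical axis, percent, with 95% Wilson intervals) by the repeat-masked share of the region (horizontal axis, percent of bases, with the number of regions). The ESC share went from 50.2% at 0 to 10% masked to 38.2% at 20 to 30%, then to 84.1% at 80 to 90%, and was 78.5% above 90%. The MEF share went from 63.3% at the left to 5.44% at the right, and the dashed line marks the 50% threshold.

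Presence in a list followed the masked share in small steps. The ESC-specific share was 24.0% in regions with less than 10% masked, 20.7% at 10 to 20%, 37.6% at 30 to 40%, 59.7% at 50 to 60% and 82.7% at 80 to 90%, and it was 78.1% above 90%. The MEF-specific share was highest at 10 to 20% masked (41.3%) and lowest above 90% (5.04%). Across the threshold, the 1100 regions with 50 to 55% masked were 56.5% ESC-specific and 22.0% MEF-specific, and the 1414 with 45 to 50% masked were 50.4% and 26.4%. The threshold therefore cuts a gradient. Transient regions went from 9.05% at 80 to 90% masked to 16.4% above 90%.

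Most repeat-rich regions were open in a single group. A peak in 1 list only was seen for 86.5% of them and for 61.0% of the other regions, a difference of 25.5 points (24.6 to 26.3, 21 chromosomes). The ESC list alone held 4798 and the MEF list alone 812. Day 5 alone had 534, day 10 alone had 152, and 293 were open on both days and in neither end point. In the order day 5, day 10 and ESCs, 252 were open in all 3 and not in MEFs. All 4 lists shared 37 (0.51%), against 14.9% of the other regions.

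Few of the ESC-specific repeat-rich regions had a peak during reprogramming. At day 5 or day 10, 487 of 5285 had one (9.21%, 8.46 to 10.0), against 16.4% of the other ESC-specific regions, a difference of −7.18 points (−8.07 to −6.25, 21 chromosomes). The share was 6.89% at day 5 and 7.10% at day 10, against 11.5% and 13.8%. The other regions had a larger share at day 10 than at day 5, and the repeat-rich shares lay within each other's intervals (6.24 to 7.6 and 6.43 to 7.82). In lists from bulk cells, a site open in few cells and a site weakly open in all of them cannot be told apart. MEF-specific repeat-rich regions were also kept less often. Of 873, 54 had a peak at day 5 (6.19%, against 14.4% of the other MEF-specific regions, −8.26 points, −9.72 to −6.42) and 34 at day 10 (3.89%, against 15.1%, −11.2 points, −12.4 to −9.67). Of the repeat-rich regions open at day 5, 46.9% were also open at day 10, against 76.4% of other regions, a difference of −29.5 points (−32.2 to −26.7).

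Within their own list, repeat-rich peaks ranked low in MEFs and on day 10, and near the middle in ESCs. Repeat-rich regions held 1013 of 56514 MEF peaks (1.79%), 1301 of 36219 day 5 peaks (3.59%), 905 of 35226 day 10 peaks (2.57%) and 5425 of 48486 ESC peaks (11.2%). The authors' fold enrichment, the height of a peak over its background, had a median of 3.00 in repeat-rich MEF peaks and 3.33 in the other MEF peaks. The medians were 3.74 and 3.72 at day 5, 3.31 and 3.37 at day 10, and 3.68 and 3.46 in ESCs. Ranked by score within a list, 24.7% of the repeat-rich MEF peaks, 40.9% of those at day 5, 33.2% of those at day 10 and 54.0% of those in ESCs were in the upper 50%. Only in ESCs did repeat-rich peaks have both the higher median fold and more than 50% of their number in the upper part of the list. Because the depth is unknown, folds of different lists are given side by side below and are not compared.

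Repeats limit what these lists could show, because the authors kept only reads with a single place in the genome. The share of a region's 50-base words that occur once in the genome had a median of 86.2% in repeat-rich regions (quartiles 68.9 and 97.5) and 100% in the others. It was 99.1% in the MEF-specific, 94.6% in the transient, 85.5% in the common and 82.3% in the ESC-specific repeat-rich regions. Among the 3080 repeat-rich regions with at least 90% unique words, the ESC-specific share was 58.3% (56.6 to 60.1), against 24.4% of the other regions with that share, a difference of 34.0 points (32.2 to 35.7). The same genome was used for all lists, but the number and length of reads behind each list is unknown, and their part in the difference between lists was not tested.

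The repeat-rich regions had a median width of 559 bp (quartiles 376 and 814, range 3 to 3755) and a median masked share of 71.5%. Their GC content had a median of 43.5%, against 46.6% in the other regions, and the ratio of observed to expected CpG was 0.17 against 0.23. The 1 kb on each side was also more masked, with a median of 44.1% against 22.1%. Regions lay on all 21 chromosomes, at 0.08 per Mb on Y, 1.57 on X and 2.27 to 3.45 on the others. The other regions were also sparse on X and Y, and repeat-rich regions made up 11.4% of all regions on X, 43.8% on Y (7 of 16) and 5.06 to 9.02% on the other chromosomes.

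Over all classes, they lay farther from genes than the other regions. Of all repeat-rich regions, 22.0% were within 5 kb of an annotated start site, against 37.7% of the others, a difference of −15.7 points (−16.7 to −14.7, 21 chromosomes). Within 1 kb the shares were 4.91% and 22.6%. The midpoint was between genes in 64.6% (against 38.9%), in an intron in 33.4% (against 47.9%) and in an exon in 1.98% (against 13.2%). The classes were not alike. Among MEF-specific regions, 25.9% of the repeat-rich and 27.5% of the others lay within 5 kb, with an interval of the difference of −4.46 to 1.42 points, and among common regions the shares were 41.0% and 76.0%. The median distance to a start site was 15.3 kb in ESC-specific repeat-rich regions against 10.3 kb in the other ESC-specific ones, 18.3 kb against 16.5 kb in transient, 8.07 kb against 0 kb in common and 11.7 kb against 12.9 kb in MEF-specific regions. In the MEF-specific class the repeat-rich regions thus had the smaller median.

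The masked bases were mainly interspersed copies. In stretches of at least 100 bases, which held 78% of the masked bases of the repeat-rich regions, 95.7% were interspersed, 3.18% lay in tandem arrays with a unit of at least 7 bases and 1.07% in tandem runs with a unit of at most 6. Regions that were mostly tandem numbered 235 (3.23%). They made up 7.90% of MEF-specific, 7.19% of common, 3.98% of transient and 2.21% of ESC-specific repeat-rich regions. Of the masked bases in stretches, longer tandem arrays took 6.77% in MEF-specific and 8.21% in common regions, and short tandem runs 3.54% and 1.89%, so neither class led in both.

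Comparison of stretches gave 371 families, of which 60 had at least 20 regions, and 6062 repeat-rich regions (83.3%) held a member of a family. The 10 largest families held 51.6% of the ESC-specific repeat-rich regions (50.2 to 52.9), 46.8% of the common ones (38.7 to 55), 25.9% of the MEF-specific ones (23.1 to 28.9) and 17.6% of the transient ones (15.3 to 20.1). As most repeat-rich regions were ESC-specific, this class itself sets which families are largest, and nothing is read from the order of these shares. A family was described when it was among the 10 largest, or had at least 20 regions with at least 80% in 1 class, which gave 43 families. Family 11 was added after its values were seen. Among the 44, at least 80% of regions were ESC-specific in 38 families, MEF-specific in 1 and transient in 1, and in none were 80% common. Since classes chose most of these families, their class shares are a description.

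**Figure D2:**
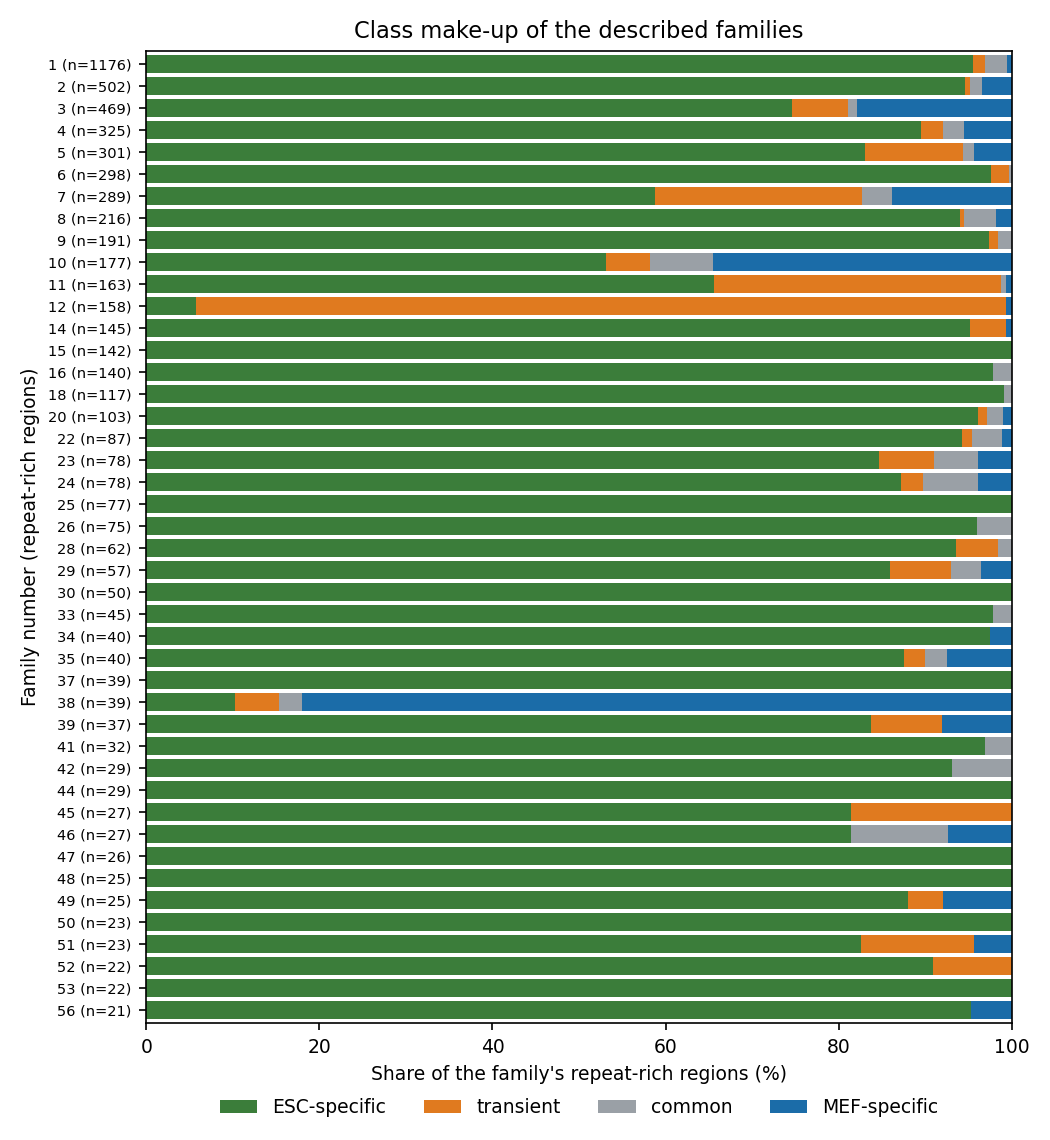
Share of each described family's repeat-rich regions in the 4 classes (horizontal axis, percent, adding to 100), one bar per family with its number of regions, in order of size. ESC-specific regions fill most bars, except for family 12 (148 of 158 transient), family 38 (32 of 39 MEF-specific) and families 3, 7, 10 and 11, which mix classes.

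Family 1, the largest, held 1176 regions, of which 1123 were ESC-specific (95.5%, 94.2 to 96.5). A peak was present in 36 of its regions in MEFs, 203 on day 5, 202 on day 10 and, for ESCs, 1152. It accounted for 21.2% of all ESC-specific repeat-rich regions. Family 2 held 502 regions, with a peak in 24 in MEFs, 61 on day 5, 61 on day 10 and 482 in ESCs. In both, the OSKM days were above MEFs and well below ESCs.

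Other families had almost no MEF peak. Family 6 (298 regions) had 1 in MEFs, 22 on day 5, 25 on day 10 and 292 in ESCs. Family 9 (191 regions) had 3, 50, 43 and 189 in the same order, and its median of 4.94 for the highest fold enrichment of a region was the highest of the 44 families. Family 14 (145 regions) had 1, 6, 3 and 138, and family 16 (140 regions) had 3, 2, 1 and 140. Families 9 and 16 thus differed in the intermediate days, although both were open in ESCs in nearly all of their regions. They also differed in the median of a region's highest score (110 and 31), highest fold (4.94 and 3.49) and unique words (83.7% and 51.9%). The part of these in the difference was not tested. All 142 regions of family 15 were ESC-specific, with 4 open at day 5 and 9 at day 10. Every region was also ESC-specific in families 25, 30, 37, 44, 47, 48, 50 and 53, which had 22 to 77 regions.

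Several families shared sequence. Cores of families 1, 2, 4, 8, 9, 20, 22, 26, 28, 30, 35 and 42 aligned to each other, directly or through another member, over 35 to 298 bases at 68.6 to 98.4% identity. The longest match joined families 1 and 30 (298 bases, 84.6% identity) and the most identical joined families 9 and 42 (61 bases, 98.4%). Together these 12 families held 2066 regions, 28.4% of the repeat-rich regions, and 1940 of them (93.9%) were ESC-specific, which was 36.7% of all ESC-specific repeat-rich regions. A peak was present in 91 of them in MEFs, 297 on day 5, 290 on day 10 and 1983 in ESCs. A second set, families 6, 11, 18, 25 and 37, held 590 regions, with 4 open in MEFs, 48 on day 5, 108 on day 10 and 535 in ESCs. The step from day 5 to day 10 in this set came mostly from family 11, with 38 regions at day 5 and 91 at day 10.

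Regions of families 3, 7 and 10 were open in several groups. Family 3 (469 regions) had a peak in 89 in MEFs, 47 on day 5, 20 on day 10 and 355 in ESCs. Family 7 (289 regions) had 50, 84, 48 and 180 in the same order and was the second largest family among transient regions (69 regions). Family 10 (177 regions) had 74, 34, 21 and 107. Its regions lay close to genes: 46.3% were within 5 kb of a start site, against 19.1% of family 1. Family 3 held 9.62% of the MEF-specific repeat-rich regions and family 10 held 6.99%. These counts are of regions that hold any stretch of the family, which need not include its core.

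Family 12 was open at day 5. Of its 158 regions, 148 had a peak at day 5, 47 at day 10, 9 in ESCs and 1 in MEFs. It held 104 of the 534 repeat-rich regions open at day 5 alone (19.5%, 16.3 to 23.1) and 15.1% of the transient ones. Its core was AT-rich, with 34.1% GC, and its regions lay far from genes, with a median of 28.8 kb to a start site.

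Family 11 was open mostly in ESCs and at day 10. Of its 163 regions, 2 had a peak in MEFs, 38 on day 5, 91 on day 10 and 108 in ESCs. The day 10 share was 55.8%, where 12.4% of all repeat-rich regions were open on that day. It held 41 of the 152 repeat-rich regions open at day 10 alone (27%, 20.6 to 34.5), and the next family there, family 7, held 7. Family 38 was the MEF counterpart. Of its 39 regions, 33 had a peak in MEFs, 2 on day 5, 2 on day 10 and 5 in ESCs.

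The families were then followed across the whole genome, including copies that no list held. A copy was a match to the core at 75% identity or more over at least 70% of its length, and it counted as open when at least 50% of it lay under a peak. The exemplars came from open regions, so a family's share is biased towards open copies. Of 749 copies of family 2, 485 were under an ESC peak (64.8%, 61.3 to 68.1), 51 under a day 10 peak (6.81%), 61 under a day 5 peak (8.14%) and 5 under a MEF peak (0.668%). Of 1732 copies of family 1, 743 were under an ESC peak (42.9%, 40.6 to 45.2), 132 at day 10 (7.62%), 117 at day 5 (6.76%) and 1 in MEFs (0.058%). These 2 families were thus open in ESCs across a large part of their copies.

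**Figure D3:**
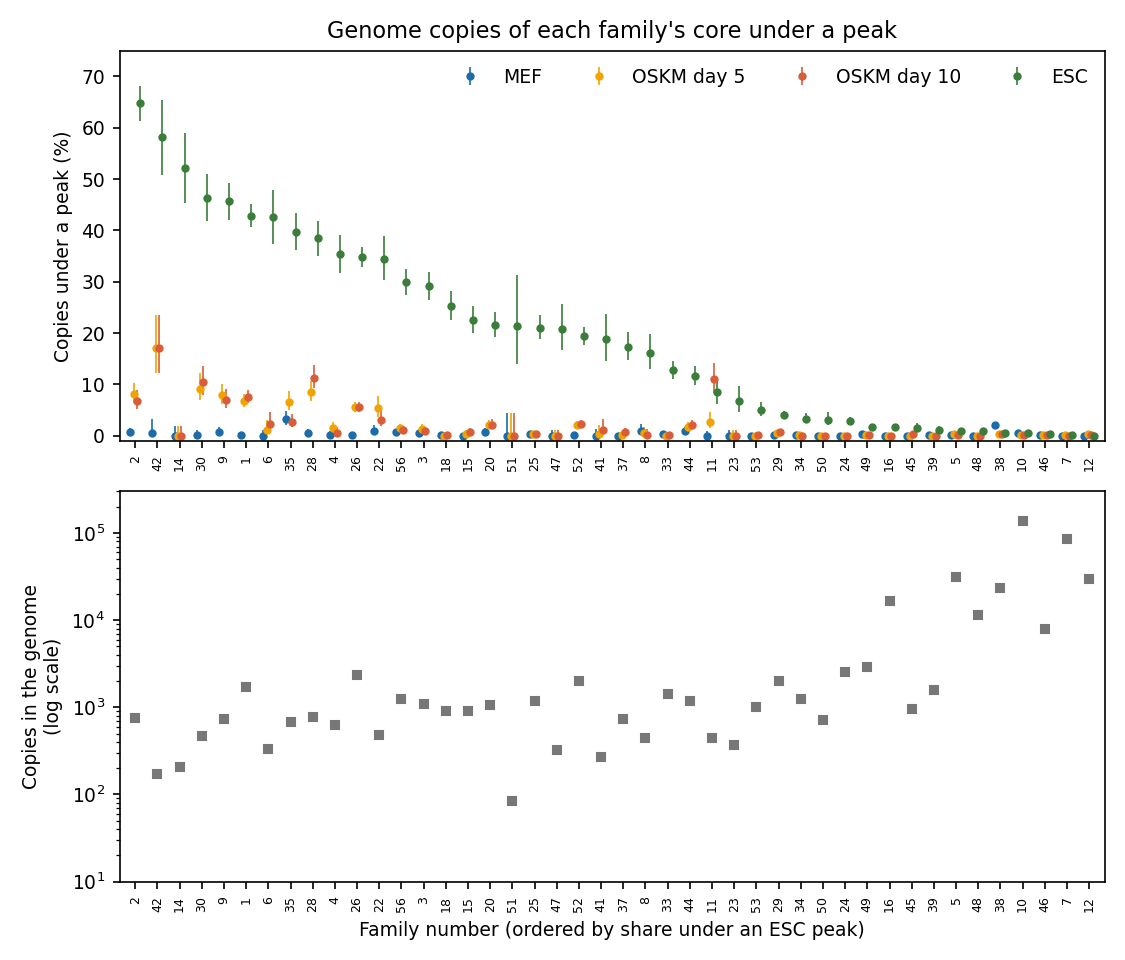
Share of genome copies of each family's core under a peak in each list (upper panel, vertical axis, percent, with 95% Wilson intervals) and number of copies (lower panel, log scale), with families ordered by the ESC share. Family 2 leads with 64.8% in ESCs, families 42 and 14 follow with 58.2% and 52.2%, and the families with the most copies, such as family 10 with 138686, are at the right with shares below 1%.

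Family 42, with 170 copies, had 58.2% under an ESC peak (50.7 to 65.4), 17.1% at each of day 5 and day 10 and 0.588% in MEFs, and its shares on the OSKM days were the highest of the families just named. Family 14, with 205 copies, had 52.2% in ESCs (45.4 to 58.9) and none in the other lists, where the Wilson interval reaches 1.84%. Family 3, with 1086 copies, had 316 under an ESC peak (29.1%), 15 at day 5, 9 at day 10 and 5 in MEFs (0.460%). Copies of its core were thus open almost only in ESCs, although 89 of its 469 regions had a MEF peak. The families with most copies were open at few of them. Family 10 had 138686 copies, of which 766 were under a MEF peak (0.552%) and 641 under an ESC peak (0.462%). Family 7 had 86201, of which 69 were under an ESC peak (0.080%) and 55 under a day 5 peak (0.064%). Family 12 had 29431, of which 111 were under a day 5 peak (0.377%), 30 under a day 10 peak (0.102%) and 1 under an ESC peak. Family 38 had 23574, of which 510 were under a MEF peak (2.16%, 1.99 to 2.36), 65 on day 5, 68 on day 10 and 111 in ESCs (0.471%). Family 38 was chosen for its MEF-specific regions, so these shares are a description.

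Of the 447 copies of family 11, 49 were under a day 10 peak (11%), 38 under an ESC peak (8.50%), 12 under a day 5 peak (2.68%) and none under a MEF peak (Wilson interval up to 0.852%). Its copies under an ESC peak had a median of 50.7% unique words, and its other copies 20.7%. Uniqueness bears on how many single-place reads a copy can receive, and its part in these shares was not tested. In family 15 the medians were 96.6% and 0%. Among the 446 copies of family 15 with at least 50% unique words, 41.3% were under an ESC peak, against 22.5% of all its copies. In family 1 the corresponding shares were 51.4% and 42.9%, and in family 2 they were 68.0% and 64.8%.

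Endogenous retroviruses start reverse transcription from a tRNA that pairs with a primer binding site next to the 5′ LTR. A match below describes letters near a copy, since its strand and its place relative to the repeat were not checked. Sites of 18 bases were made from the ends of annotated tRNAs, which gave 124 different sequences. These were searched with at most 1 mismatch within 1.5 kb of the copies of 36 families with at most 5000 copies. Family 39 had a tRNA-Leu site at 351 of 1572 copies (22.3%), where the median over the other families was 0.172%. Family 24 had a tRNA-Phe site at 224 of 2540 copies (8.82%, median of the others 0.231%). Families 3 and 56, whose cores aligned over 78 bases at 85.9% identity, had a tRNA-Gly site at 65 of 1086 (5.99%) and 68 of 1254 copies (5.42%, median 0.137%). Families 34 and 30 had a tRNA-Lys site at 3.81% and 3.42% (median 0.298%). Family 1 had one at 1.15%.

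Short sequence patterns were searched in a 200 bp window at the middle of each region's widest peak. A match is a description of the letters and not of a bound factor. The patterns, with the share of all 101701 windows that held them, were TGANTCA for AP-1, the FOS and JUN dimers (15.4%), ATGCAAAT for the octamer (2.19%), CCNTTGT for SOX factors (13.2%), TTGTNATGC for the octamer-SOX core (1.29%), CCACNCCC for KLF factors (8.37%), TCAAGGTCA for ESRRB (0.681%) and NCATTCC for TEAD factors (15.0%). TGTGGTT stood for RUNX factors (5.26%), AAGATGGC for YY1 (1.15%), CCGGAAGT for ETS factors (0.581%), GTTCGANNC for the B box of RNA polymerase III genes (0.481%), and a longer pattern for CTCF (1.12%). The octamer-SOX core can overlap both a SOX and an octamer match.

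ESC-specific repeat-rich regions held more SOX matches than other ESC-specific regions. A SOX match was present in 27.2% of the first and 15.8% of the second, a difference of 11.4 points (10.1 to 12.7, 21 chromosomes). For the octamer-SOX core, the composite that OCT4 and SOX2 bind together, the shares were 7.34% and 1.53% (5.81 points, 5.12 to 6.56, 19 chromosomes). The full octamer was at 4.60% and 2.87% (1.73 points, 1.15 to 2.36), and the YY1 pattern at 3.01% and 1.15% (1.86 points, 1.41 to 2.38). CTCF, a factor that shapes chromatin loops, was lower, at 0.23% and 1.36% (−1.13 points, −1.32 to −0.91), and KLF was lower, at 7.47% and 9.17% (−1.70 points, −2.48 to −0.88). AP-1 was at 6.43% in both, with an interval of the difference of −0.70 to 0.77 points.

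MEF-specific repeat-rich regions had an AP-1 match in 31.4%, against 29.4% of other MEF-specific regions (2.01 points, −1.02 to 5.20), so a difference in AP-1 was not shown in these windows. RUNX matches were at 10.9% and 7.26% (3.63 points, 1.71 to 5.88) and octamers at 3.44% and 1.14% (2.29 points, 1.27 to 3.72). With the whole region searched, AP-1 was at 50.3% and 58.1% (−7.79 points, −11.1 to −4.44), RUNX differed by 1.86 points with an interval that includes 0 (−0.81 to 4.77), and the octamer by 2.60 points (1.07 to 4.5). The repeat-rich MEF-specific regions were narrower, with a median of 436 bp against 632 bp, which bears on a search of whole regions. In transient repeat-rich regions AP-1 was lower (6.84% against 11.7%, −4.83 points, −6.34 to −3.01), SOX was lower (15.0% against 18.6%, −3.61 points, −5.80 to −1.16) and KLF was higher (12.7% against 8.65%, 4.02 points, 2.02 to 6.29). Over the whole region these differences were −9.28, −10.1 and 7.93 points. The 139 common repeat-rich regions had a SOX match in 23.0% against 8.36% (14.7 points, 8.43 to 22.3), AP-1 in 15.8% against 5.46% (10.4 points, 5.22 to 17.3) and the octamer-SOX core in 5.04% against 0.32% (4.72 points, 2.14 to 9.71). Of the other common regions, 76.0% lay within 5 kb of a start site.

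**Figure D4:**
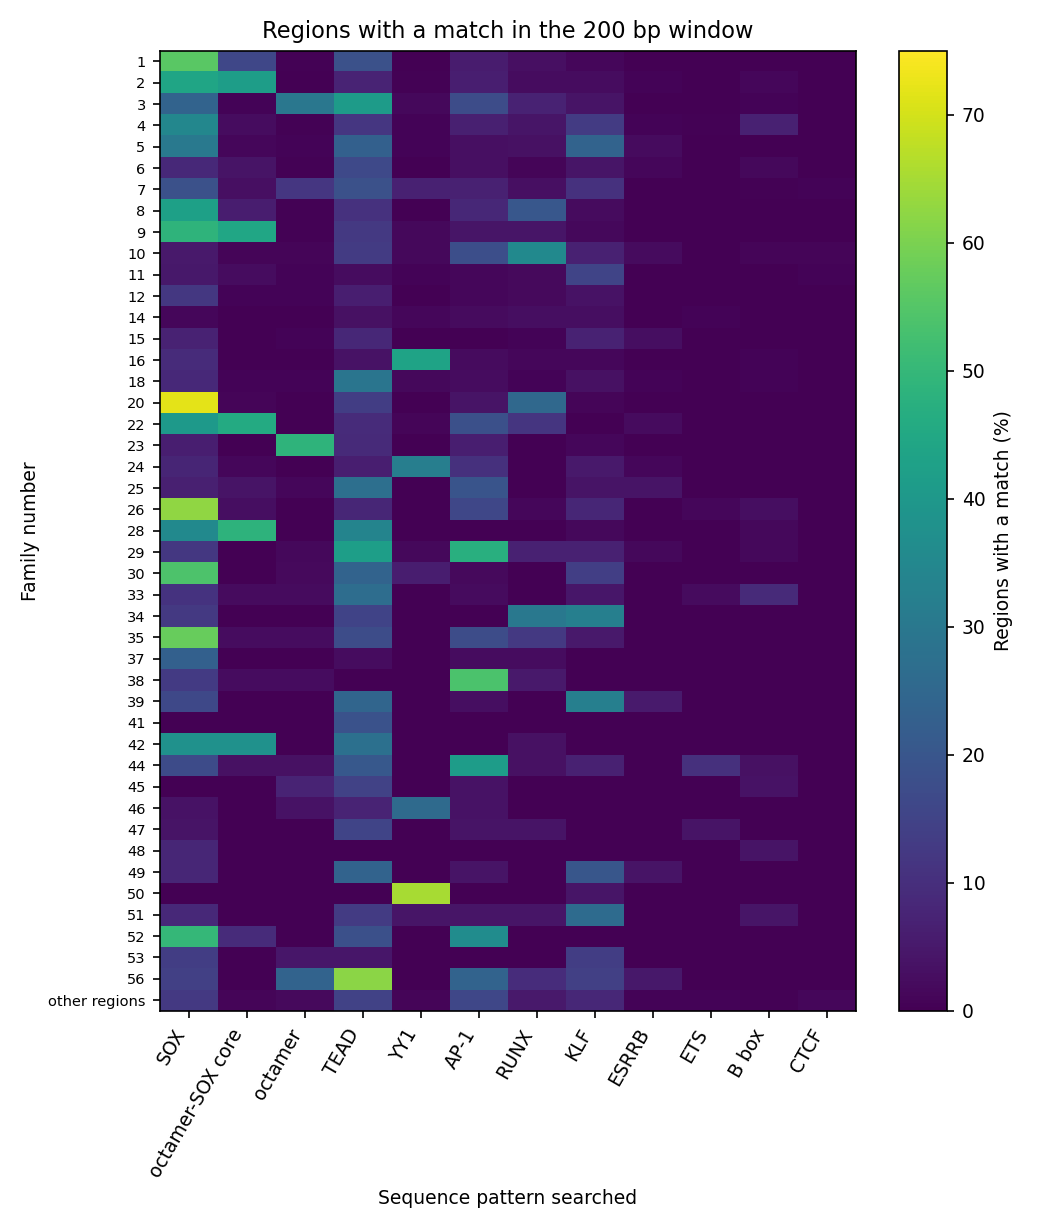
Share of regions with a match to each of 12 patterns (columns) in the 200 bp window, for each described family (rows) and for the regions that were not repeat-rich (bottom row), with the color scale in percent. SOX matches are brightest in families 20, 26, 35 and 1, the octamer-SOX core in families 28, 22, 9 and 2, YY1 in families 50 and 16, and AP-1 in families 38, 29 and 44. The window is taken per region and can hold sequence outside the family's core or of other families.

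The matches were spread unevenly over the families. A SOX match was present in 71.8% of the windows of family 20 (62.5 to 79.6), in 55.9% of family 1 (657 of 1176) and in 44.2% of family 2. The octamer-SOX core was present in 48.4% of family 28 (36.4 to 60.6), 46.0% of family 22, 44.5% of family 9 and 41.6% of family 2 (209 of 502, 37.4 to 46.0). The sequences printed above for families 28 and 2 held this pattern, but the cores of families 22 and 9 held no match to it. A region can hold stretches of several families, so a match in its window need not lie in the family named. The 12 families with related cores held 338 of the repeat-rich regions with that core, which was 82.0% of them. The octamer was present in 48.7% of family 23 and 29.9% of family 3, and the YY1 pattern in 65.2% of family 50, 43.6% of family 16 and 32.1% of family 24. AP-1 was present in 53.8% of family 38 (21 of 39), 47.4% of family 29 and 41.4% of family 44, RUNX in 35.6% of family 10, and TEAD in 61.9% of family 56 and 41.2% of family 3. Family 44 was ESC-specific in all of its 29 regions and family 38 was mostly MEF-specific, so a frequent AP-1 match occurred in families of both kinds.

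Copies of 1 family that were open in ESCs were compared with its other copies. In family 2 the octamer-SOX core was present in 80.2% of the 485 copies under an ESC peak and in 61.4% of the 264 others, a difference of 18.8 points (12 to 25.7). In family 28 it was present in 73.3% of 296 and 40.1% of 474 (33.2 points, 26.3 to 39.6). In family 3 the octamer was present in 80.4% of 316 and 62.5% of 770 (17.9 points, 12.1 to 23.2), and AP-1 in 29.7% and 43.0% (−13.2 points, −19.2 to −6.95). With only copies of at least 50% unique words, these differences were 22.5, 28.7, 11.5 and −13.4 points. The octamer or its joint with SOX was thus more frequent in open copies of families 2, 28 and 3 under both choices. The cores searched came from open regions and, in these 3 families, held the pattern, and the open copies were also closer to the core. Their median identity was 86.0% against 84.1% in family 2, 90.3% against 83.8% in family 28 and 88.0% against 82.7% in family 3, and the part of this in the differences was not tested.

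**Figure D5:**
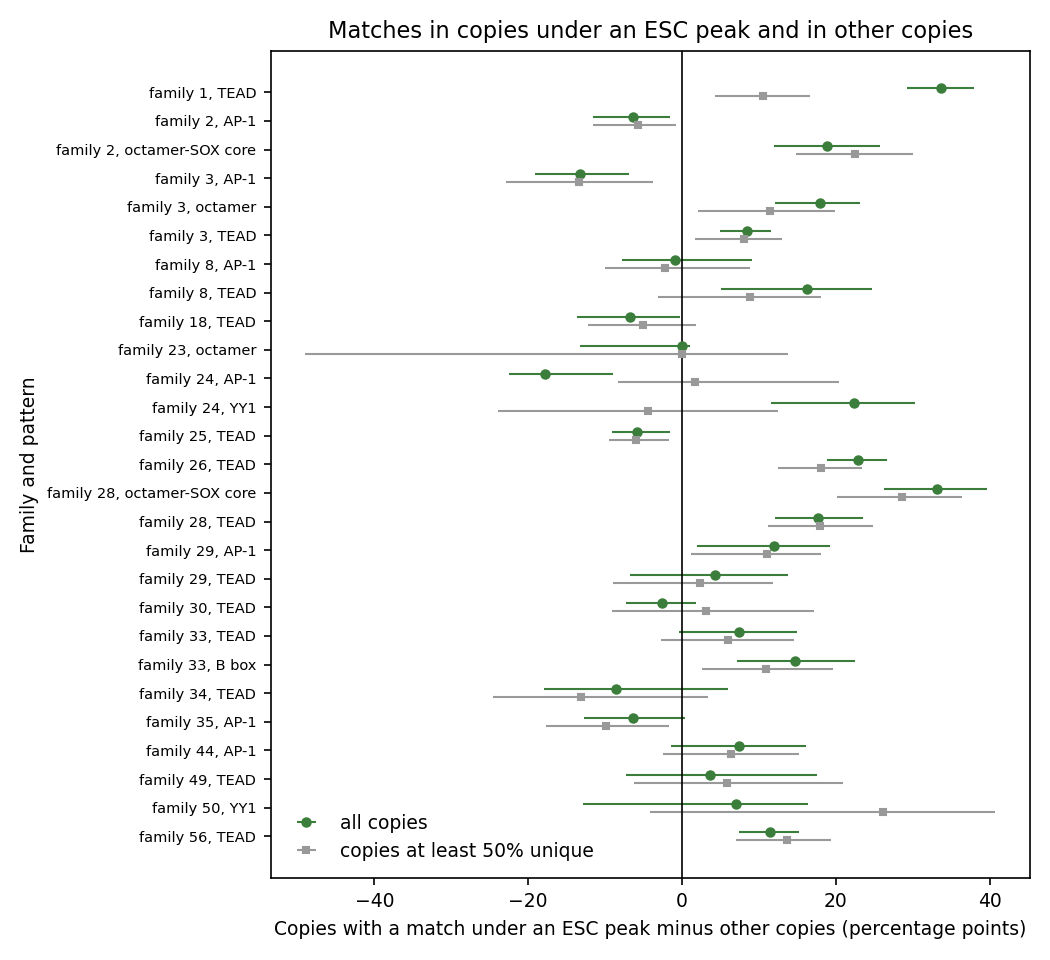
Difference in the share of copies with a match between copies under an ESC peak and the other copies of the family (horizontal axis, percentage points, with 95% Newcombe intervals), for all copies (circles) and for copies with at least 50% unique words (squares). Only the octamer-SOX core, octamer, TEAD, YY1, AP-1 and B box patterns are drawn, and SOX, KLF, RUNX and ETS are left out. Points to the right of 0 are patterns more frequent in open copies. Among those drawn, TEAD in family 1 (33.7 points) and the octamer-SOX core in family 28 (33.2 points) lead. The squares show where the value depends on uniqueness.

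For other families the choice of copies mattered. In family 1 a TEAD match was present in 76.7% of open and 43.0% of other copies (33.7 points, 29.3 to 38.0), and with at least 50% unique words the difference was 10.5 points (4.32 to 16.6). A SOX match in family 1 differed by 8.71 points (5.57 to 11.8) and, with unique copies, by −0.28 points (−4.55 to 4.02). The YY1 pattern in family 24 differed by 22.3 points (11.5 to 30.3) and, with unique copies, by −4.36 points (−23.9 to 12.5), over 25 open copies. TEAD in family 26 differed by 22.9 points and by 18 points with unique copies. The octamer of family 23 was present in every copy searched, open or not (25 and 347 copies).

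Single regions show the range of these values. The ESC-specific region with the highest score, chr17:76499939-76500753, was 81.5% masked, held stretches of families 1, 2 and 9 and an octamer-SOX core, and had a fold enrichment of 7.68 in ESCs, with no peak in the other lists. It lay 161 kb from the nearest start site. The second highest, chr8:19705147-19705544, had a fold of 6.34 and a stretch of family 4. The ESC-specific region with the most peak bases, chr10:52494970-52497681, lay between genes, was 100% masked by family 7 sequence and had only 4.96% unique words. Its fold was 2.94 on day 5, 2.81 on day 10 and 3.62 in ESCs.

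Of the MEF-specific regions, chr19:44929493-44929691 had the highest score, with a fold of 4.36 in MEFs and no other peak. It lay 1.46 kb from the start of Slf2, a gene of DNA repair. The next, chr3:101294986-101295684, lay between genes and had a fold of 5.45 in MEFs, 3.26 at day 5 and 4.24 at day 10, and an AP-1 match. The region with the most peak bases, chr16:44948636-44952076, lay in an intron of Cd200r3, a receptor gene of immune cells, with folds of 5.30, 4.38 and 3.75 in the same 3 lists and 41.4% unique words.

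Of the transient regions, chr7:108089050-108089875 had the highest score, with folds of 6.37 at day 5 and 4.14 at day 10, and lay 4.61 kb from the pseudogene Gm44870. The next, chr7:88735688-88736872, had folds of 6.54 and 4.35. The transient region with the most peak bases, on chromosome 18, had folds of 4.06 and 2.74 and a stretch of family 12.

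Of the common regions, those with the highest scores also had high folds. The first, chr2:98666574-98667316, lay in an exon of Gm10800, was 99.2% masked and had folds of 8.03 in MEFs, 8.65 on day 5, 8.36 on day 10 and 8.65 in ESCs. The second, chr9:35305228-35305589, lay in an intron of the long noncoding RNA gene Gm33838, was 95.6% masked and had folds of 12.1, 15.5, 15.8 and 15.3. Both held stretches of family 218, and both had a peak in all 4 lists. Their scores, in the same order, were 5699, 8731, 12973 and 7578 for the first and 1041, 1675, 2856 and 1429 for the second. The highest score of an ESC-specific repeat-rich region was 441. Unique words made up 57.5% of the first region and 69.97% of the second. How far the scores of these regions reflect open chromatin was not tested. The common region with the most peak bases, chr3:11211134-11213543, held families 1, 41 and 126 and had folds of 4.57, 3.21, 3.05 and 2.83.

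Repeat-rich regions were then looked for near genes of 3 lists. Within 50 kb of a start site, 9 of 25 pluripotency genes had a repeat-rich region, and near 8 of them it was ESC-specific. Of all 21911 protein-coding genes, 21.3% had an ESC-specific and 28.7% any repeat-rich region within that distance. The 8 were Klf5, Esrrb and Zfp42 (transcription factors of naive pluripotency), Dppa2, Dppa3, Dppa4 and Dppa5a (genes of early embryo and germ cells) and Gdf3 (a TGF-beta ligand). Dppa2 and Dppa4 are neighbours and shared 3 regions, of which chr16:48308854-48309580 lay 0.90 kb from Dppa2 with a fold of 3.17 in ESCs, and Dppa3 and Gdf3 shared chr6:122617439-122618007. Near Esrrb the 2 regions lay 14 and 19 kb from a start site, with folds of 2.49 and 4.02 in ESCs and no other peak. The region near Utf1, 25.8 kb away, was open at day 10 alone.

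Of 25 fibroblast genes, 8 had a repeat-rich region within 50 kb, where 28.7% of all protein-coding genes had one. Near 6 it was MEF-specific, where 5.62% of all protein-coding genes had such a region. The 6 were Prrx1, Runx1 and Tead1 (transcription factors), Col1a1 and Postn (matrix proteins) and Vim, which encodes the intermediate filament vimentin. The region near Vim, chr2:13583465-13584351, was 100% masked, lay 4.10 kb from a start site and had a peak in MEFs and at day 5, with a highest fold of 3.68. The region near Runx1, chr16:92823554-92824518, lay 1.26 kb from a start site and had a fold of 2.84 in MEFs alone. Near Col3a1 and Fn1, a matrix collagen and fibronectin, the regions were ESC-specific. Of 10 genes of the 2-cell embryo, 2 (Zfp352 and Usp17lc) had such regions, all ESC-specific, where 21.3% of all protein-coding genes had an ESC-specific one. No test was made of these counts of genes.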

How the data were processed

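ATAC-seq was run on 8 libraries (4 groups of 2), grouped by the sample titles. Reads were mapped to mm10 by the authors with Bowtie2 (version 2.2.0 in the submitters' processing notes) and its very-sensitive preset. Reads of low mapping quality, reads with several genomic places and mitochondrial reads were removed. The peak caller and its settings, and the tool behind the repeat masking, are not given in the sources used here. The authors deposited 1 peak list per group, with 3 values used here per peak, namely the score, the fold over background and the −log10 q-value. The score equalled the −log10 q-value multiplied by 10 and cut to a whole number. Peak names were those of replicate 1, so the intervals look like intersections of replicate peaks, which no source states. The scores and folds may likewise be those of replicate 1 alone, which is not stated either. Reads that map to several places were absent, which limits the reads that copies with few unique words can receive. Depth is not known from the lists, and its part in the length of a list was not tested.

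Peaks within 400 bp were merged, and masked bases were counted in the soft-masked GRCm38 sequence. The members and gene lists were chosen with earlier results of these data known. Gene starts and structures were those of GENCODE. Shares have 95% Wilson intervals and differences of shares have Newcombe intervals, with the number of chromosomes of 21 that show the same sign. No test over replicates was possible. A 50-base word was unique when found once in the genome on either strand. Masked stretches of at least 100 bases, joined over gaps of at most 10, were compared by blastn 2.17.0 and put in families at 75% identity over 70% of the shorter stretch. Cores were searched in the genome with the same limits. Regions were named by a rule: per class, the 2 with the highest score and the 1 with the most peak bases. Python 3.11.15 with numpy 2.4.6, pandas 2.3.3 and numba 0.67.0 was used, with matplotlib 3.10.9 for plots. The scripts were tested on simulated data. Alternatives were other masked shares, merge distances, peak subsets, unique regions, family limits and copies. Columns left unmapped numbered 0.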

Additional observations from a re-analysis of the deposited data

How the results depend on the processing

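The differences of 47.7 points in the ESC-specific share and −26.3 points in the MEF-specific share between repeat-rich and other regions kept their sign, with an interval on the same side of 0, under each of the 9 alternatives run. The shares themselves moved. In the order MEFs, day 5, day 10 and ESCs for peaks, and then MEF-specific, ESC-specific, common and transient, a masked share of at least 30% gave 16216 regions with 27.5, 23.5, 17.6 and 59.6%, and 23.2, 55.3, 4.29 and 17.1%. A masked share of at least 80% gave 2599 regions with 6.58, 16.6, 11.3 and 80.8%, and 5.77, 80.03 and 0.808% for the first 3 classes. With the peaks in the upper 50% of scores in each list, 3541 regions had 7.12, 14.9, 8.11 and 82.5%, and 6.27, 81.6, 0.847 and 11.3%. With the same number of highest-scoring peaks in each list, the shares were 6.93, 23.1 and 16.6% for MEFs, day 5 and day 10, and 6.02, 73.7, 0.912 and 19.4% for the classes. With at least 90% of 50-base words unique, 3080 regions had 22.6% in MEFs, 21.9% at day 5 and 60.3% in ESCs, and were 20.6% MEF-specific, 58.3% ESC-specific and 19.1% transient. The cause of these moves was not tested. The settings that drop peaks also leave a smaller number of them, and the part of this was not tested either. Merging at 1 kb, merging only touching peaks, masking counted under peaks only, and leaving out X and Y moved no share by more than its interval.

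Of 12 differences in pattern matches of ESC-specific regions, 11 kept their sign and side of 0 when the whole region was searched, and AP-1 turned from 0.01 to −1.11 points, with an interval that includes 0 in both. The sizes moved, with TEAD going from 1.49 to 13.4 points, the octamer-SOX core from 5.81 to 9.91, KLF from −1.70 to −4.73, YY1 from 1.86 to 3.59 and CTCF from −1.13 to −2.20. The ESC-specific repeat-rich regions were wider than the other ESC-specific ones, with a median of 597 bp against 537 bp. Width bears on a search of whole regions, and its part was not tested. Families numbered 371, 480 at 85% identity and 295 at 50% cover, and the largest held 1176, 695 and 1696 regions. Shares of copies under an ESC peak moved by more than their interval in 15 of 33 families with copies at least 50% unique, in 18 of 44 when 1 bp of overlap sufficed and in 21 of 44 with the whole exemplar. The restriction to unique copies, the whole exemplar and the addition of family 11 were chosen after seeing the data. No paired analysis was possible because both replicates of a group were deposited as 1 list, and for the same reason leaving out each replicate was not run. Depth is unknown, so absence from a list may mean too few reads.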
